A study of Mus musculus with 4 samples.

Results

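The genes described here encode the protein subunits of the mitochondrial ribosome and the translocases that bring proteins into mitochondria. They were taken by name: every gene with a symbol starting with Mrpl, Mrps, Timm or Tomm that stood as the only symbol of a probe set in the platform annotation. This gave 100 genes of the 18193 with a probe set of their own, made up of 47 Mrpl, 29 Mrps, 16 Timm and 8 Tomm genes. Of these, 98 passed the filter on low values and were tested among 13222 genes. Timm8a2 and Tomm20l lay below it on every array.

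RNA came from macrophages of MyD88 -/- mice, that is, mice without the adaptor used by most Toll-like receptors. The cells were grown from bone marrow over 6 days with human M-CSF (recombinant), which turns marrow precursors into macrophages. Unstimulated cells (0 min, 2 arrays) were compared with cells given zymosan, a yeast cell wall particle, at 100 ug/ml for 120 min (2 arrays), on Affymetrix Mouse430_2 arrays. Both groups carry the MyD88 deletion, so nothing below speaks to the effect of MyD88. Separate animals or cultures are not named for the arrays within a group, so the p-values measure only how these arrays spread, and that spread may be technical. Age, strain and the MyD88 allele's construction are not given in the labels.

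The values are log2 expression values, and the array medians lay between 4.92 and 4.94. By scan date, the unstimulated arrays were 16 days apart, with 1 operator. Both zymosan arrays were scanned on the same later day (day 153, counting the first array as day 0). They fell under another project and a different operator. The processing day used below is this scan date. Since no day held both groups, day, operator, project and stimulus cannot be told apart anywhere below. Going by array names, the controls come from separate sets called LPS and PIC, while both zymosan arrays come from a set called ZYM. Whether the controls are the starting cells of the zymosan experiment is therefore not known, and they cannot be taken as matched to it. Macrophage markers such as Csf1r and Lyz2 were among the bright genes on every array. The summed level of the 9 measured, which leans on the brightest, was 15.6 to 15.7 (log2) in the unstimulated and 15.4 to 15.5 in the zymosan arrays. Of the 9, 5 were called lower: Itgam (-1.66), Fcgr1 (-1.10), Adgre1 (-0.82), Cd14 (-0.70) and Csf1r (-0.40). Only 1, Msr1, was called higher (0.66). Markers of granulocytes and their precursors moved with the groups: 10 of 11 passed the test as higher with zymosan, and their summed level was 10.1 to 10.2 in the unstimulated and 12.3 to 12.4 in the zymosan arrays. Among them, Mpo, a granule enzyme of neutrophil precursors, read 4.53 on both unstimulated arrays and 7.76 and 7.77 on the zymosan arrays. The part of these granulocyte markers in the results below was not tested, and in RNA from mixed cells fewer cells of a type and less RNA per cell cannot be told apart. The Myd88 probe set itself read 8.72, 8.78, 8.37 and 8.40, which does not check the genotype, since the deleted stretch is not given and there is no wild-type array to set it against.

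Mitochondria make a small set of respiratory chain subunits on their own ribosome. The names Mrpl and Mrps refer to its large and small subunit, but a name does not always match the place of the protein. All proteins of this ribosome, like nearly all other mitochondrial proteins, are encoded in the nucleus, made in the cytosol and imported. They enter through the TOM complex of the outer membrane and are then sorted: the TIM23 complex takes proteins with a presequence into the matrix or inner membrane, the TIM22 complex inserts carrier proteins, and the small Tim chaperones carry hydrophobic precursors across the space between the membranes.

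On the zymosan arrays 7 of the 15 measured Timm genes were higher (46.7%, against 10.1% of all genes). The mitoribosome genes had a small positive median difference. Of the 98 tested, 15 passed the test as higher (limma, Benjamini-Hochberg adjusted p under 0.05 over all 13222 genes), against 10.1% of all genes, and 1 as lower, against 6.73%. The other 82 did not pass. The share of these genes called higher, 15.3%, is not far above that of all genes, and among the other genes of like signal level it was 13.2%. It lay below the share of all genes under stricter settings: 2.04% against 3.46% when limma tested against a minimum change of 1.2-fold, and 2.04% against 4.45% with processing day as a random block. The share called lower, 1.02%, stood beside 9.41% for those genes of like level. The median difference was 0.17 on the log2 scale, against 0.004 for all genes and 0.05 for the other genes of like level, and 78 of the 98 differences were positive (79.6%, against 50.7% of all genes and 55.9% of those of like level). In 55 genes (56.1%) both zymosan arrays lay above both unstimulated arrays, against 32.4% of all genes and 41.3% of those of like level. In 13 (13.3%) both lay below, against 28.2% and 29.7%. The changes were small: the 15 genes called higher rose 1.29-fold to 1.78-fold, 5 of them by more than 1.5-fold and none by 2-fold.

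The count changed with the arrays in the fit, while the differences changed less. Leaving out 1 array leaves a group of 1, assumed to vary like the other group. Without zymosan replicate 1 none of the 15 passed (limma; 15 members were higher and 1 lower at an unadjusted p under 0.05), and without zymosan replicate 2 again none did (20 higher and 0 lower at an unadjusted p under 0.05). Those fits called only 1.3% and 1.01% of all genes higher, and the members' median difference was 0.17 in both, as with all 4 arrays. Without unstimulated replicate 1, 12 of the 15 still passed, and without unstimulated replicate 2, 10 of the 15, with a median of 0.12. In a fit over all 27571 kept probe sets, 9 of the 15 passed with the same probe set, and Mrpl18, Mrpl39, Mrpl40, Mrps18b, Mrps36 and Timm8b did not (limma adjusted p from 0.0518 to 0.0638).

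**Figure D1:**
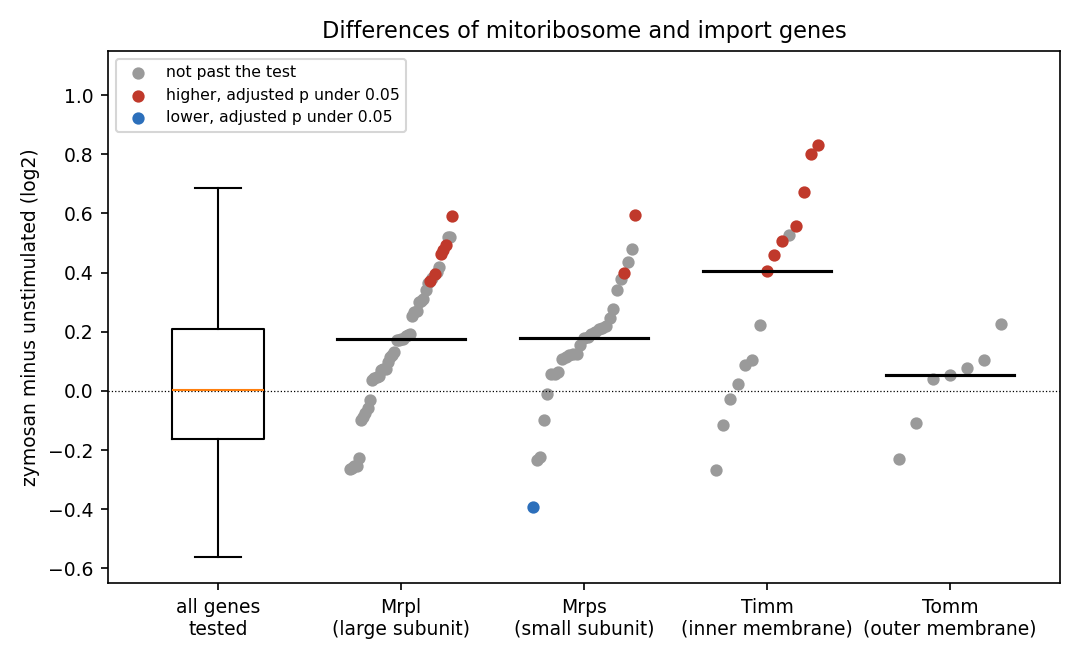
Difference between zymosan and unstimulated means (log2) for each tested gene, by family, with a black line at each family's median. The box for all 13222 genes spans the quartiles, its line is the median and its whiskers reach the 5th and 95th percentiles. The Timm median lies at 0.41, above those of Mrpl (0.17), Mrps (0.18) and Tomm (0.05).

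The families, taken by name, differed in how many members passed. The Timm genes include chaperones of the intermembrane space and Timmdc1. Of these 15 genes, 7 rose (46.7%, against 10.1% of all genes) and none fell, with a median difference of 0.41. Among the Tomm genes, none of 7 passed in either direction, and none reached an unadjusted p under 0.05 with limma. Of the Mrpl and Mrps genes together, 10.5% were called higher, near the 10.1% of all genes and below the 13.2% of other genes of like level. The Mrpl genes had 6 of 47 higher (12.8%) and none lower, with a median of 0.17. The Mrps genes had 2 of 29 higher (6.9%) and 1 lower (3.45%, against 6.73% of all genes), with a median of 0.18. These counts follow the names, not the subunit in which each protein sits. Whether the families differ from one another was not tested. The Timm count was 7 when either unstimulated array was left out, 0 when either zymosan array was, and 2 both with the day block and against a minimum change of 1.2-fold. The Timm median was 0.38 and 0.35 without zymosan replicates 1 and 2, and 0.23 without unstimulated replicate 1.

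The small Tim chaperones held the largest changes. These proteins form rings, Timm9 with Timm10 and Timm8 with Timm13, that hold hydrophobic precursors in the intermembrane space. Of 6 measured, 4 rose (66.7%, against 10.1% of all genes): Timm10, Timm8a1, Timm9 and Timm8b. Timm13 and Timm10b did not pass. Timm8a1, encoded on the X chromosome and known from the deafness and dystonia syndrome caused by loss of its human counterpart, read 8.82 and 8.55 on the unstimulated arrays and 9.52 and 9.51 on the zymosan arrays. It rose 1.78-fold (log2 difference 0.83, SE 0.12, limma adjusted p = 0.0107). Both zymosan values lay above both unstimulated ones. A second Timm8a1 probe set, at 7.39 and 7.48 against 7.92 and 8.11, also passed in a fit over all probe sets (0.58, SE 0.12, limma adjusted p = 0.0305).

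Timm10 read 8.63 and 8.45 without stimulus and 9.34 and 9.34 with zymosan. It rose 1.74-fold (0.80, SE 0.11, limma adjusted p = 0.00827), the smallest p of all 98 genes. Timm10 and Timm8a1 were also the only 2 of the 98 that still passed when the test was made against a minimum change of 1.2-fold. Its ring partner Timm9 read 5.08 and 4.86 against 5.57 and 5.71, which is a rise of 1.59-fold (0.67, SE 0.12, limma adjusted p = 0.0184). These Timm9 values sit not far above the filter level of 4.36 to 4.39, and its other probe set lay below that level. Timm8b read 8.77 and 8.80 against 9.22 and 9.17 and rose 1.32-fold (0.41, SE 0.10, limma adjusted p = 0.0386). For all 4 genes both zymosan arrays lay above both unstimulated ones, as they did for 32.4% of all genes.

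Timm13, the partner of the Timm8 proteins, read 10.41 and 10.56 against 10.76 and 10.65, a difference of 0.22 (SE 0.11, limma adjusted p = 0.22) with no overlap. Timm10b, a small Tim tied to the carrier translocase in the inner membrane, read 10.29 and 10.35 against 10.07 and 10.03. It was the only small Tim with a negative difference (-0.27, SE 0.10, limma adjusted p = 0.115), and its other 2 kept probe sets differed by -0.28 and -0.36.

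**Figure D2:**
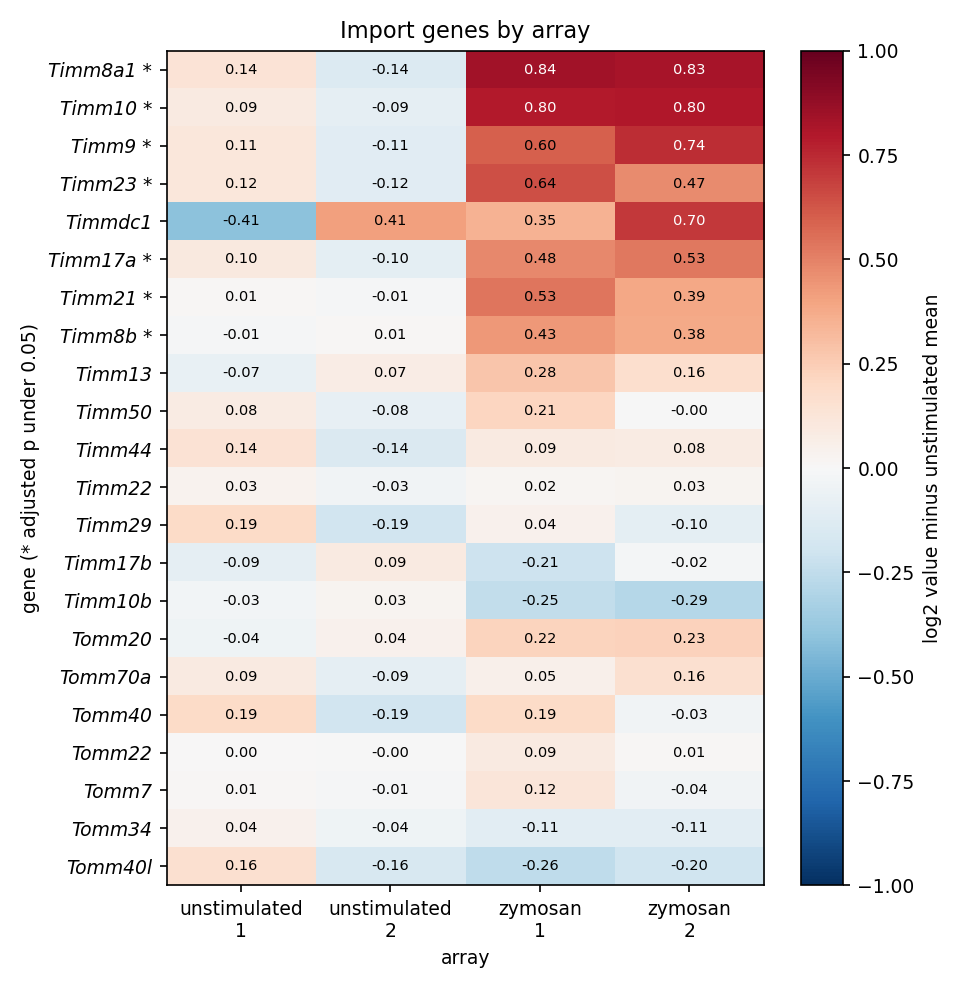
Each tested import gene (rows) on each of the 4 arrays (columns) as its log2 value minus the mean of its 2 unstimulated arrays, with the value printed in each cell and a star for an adjusted p under 0.05. Timm8a1 and Timm10 stand at 0.80 to 0.84 on both zymosan arrays, while the Tomm rows at the bottom stay within 0.26 of 0 on every array.

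In the TIM23 complex, the gate for proteins with a presequence, 3 of 6 measured genes rose, against 10.1% of all genes. None of the 3 passed with the day block or against a minimum change of 1.2-fold. Timm23, the channel subunit, read 10.59 and 10.36 against 11.11 and 10.95 and rose 1.47-fold (0.56, SE 0.12, limma adjusted p = 0.0342). Timm17a, its close partner in the channel, read 9.82 and 9.63 against 10.21 and 10.26 and rose 1.42-fold (0.51, SE 0.11, limma adjusted p = 0.0316). Timm21, which links TIM23 to the outer membrane gate and the respiratory chain, read 6.86 and 6.83 against 7.38 and 7.23 and rose 1.38-fold (0.46, SE 0.10, limma adjusted p = 0.0342). In each of these 3 the groups did not overlap, which also held for 60.6% of all genes.

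The receptor and motor-side subunits of TIM23 did not pass. Timm50, the presequence receptor, read 8.47 and 8.31 against 8.61 and 8.39, a difference of 0.11 with overlapping groups. Timm44, which anchors the import motor, read 8.98 and 8.69 against 8.92 and 8.91, a difference of 0.09 with overlap. Timm17b, the alternative to Timm17a, read 8.12 and 8.31 against 8.01 and 8.19, a difference of -0.12 with overlap, while its second probe set differed by 0.30 (limma adjusted p = 0.129).

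In the carrier translocase, neither gene passed. Timm22, its channel, read 8.73 and 8.66 against 8.71 and 8.73, and Timm29 read 8.69 and 8.30 against 8.53 and 8.39. Both differences, 0.02 and -0.03, were smaller than their SEs of 0.10 and 0.15, and both groups overlapped. Timmdc1, which shares the name but is known as an assembly factor of respiratory complex I, read 5.36 and 6.18 against 6.12 and 6.47. Its difference of 0.53 was as large as that of the called genes, but its SE was 0.28 and its limma adjusted p 0.248.

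None of the 5 measured TOM complex genes passed. The receptor Tomm20 read 11.88 and 11.97 against 12.15 and 12.16, a difference of 0.23 (SE 0.10, limma adjusted p = 0.172) without overlap. Its 6 probe sets ranged from -0.40 to 0.35, and none passed. The channel Tomm40 read 8.32 and 7.93 against 8.32 and 8.09, a difference of 0.08 within the spread of its unstimulated arrays. The receptor Tomm22 read 10.04 and 10.04 against 10.13 and 10.05 (0.05), the small subunit Tomm7 9.69 and 9.67 against 9.79 and 9.64 (0.04), and the receptor Tomm70a 9.27 and 9.09 against 9.23 and 9.34 (0.10). Outside the complex, the cytosolic cochaperone Tomm34 differed by -0.11 and the Tomm40 relative Tomm40l by -0.23, neither past the test. A change of the size seen for Timm8a1 would be large beside the SEs of the Tomm genes, which ran from 0.10 to 0.16.

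Related genes of a pair often differed in how they moved. The difference for Timm10 exceeded that for Timm10b by 1.07 (log2), that for Mrps18b exceeded that for Mrps18a by 0.82 and that for Mrps18c by 0.47, and that for Timm17a exceeded that for Timm17b by 0.62. Timm17b is taken from its brightest probe set here, which can match other transcripts by its design class. Its second, plain _at probe set read 7.63 and 7.59 against 7.84 and 7.98. It differed by 0.30, in the direction of Timm17a. Timm8a1 exceeded Timm8b by 0.43, and Tomm40 exceeded Tomm40l by 0.31. In all 6 pairs, 2 of which share Mrps18b, the gene minus its relative, taken on each array, did not overlap between groups. Of all single genes 60.6% did not overlap either, but no such share was counted for other pairs. Except in the Tomm40 pair, the first gene had itself been called higher. The smallest p of an exact permutation test at 2 arrays a group is 0.333, so none of these 6 differences can pass one. Tomm20l, the relative of Tomm20, read 3.96 to 4.03 on the 4 arrays, below the filter level.

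**Figure D3:**
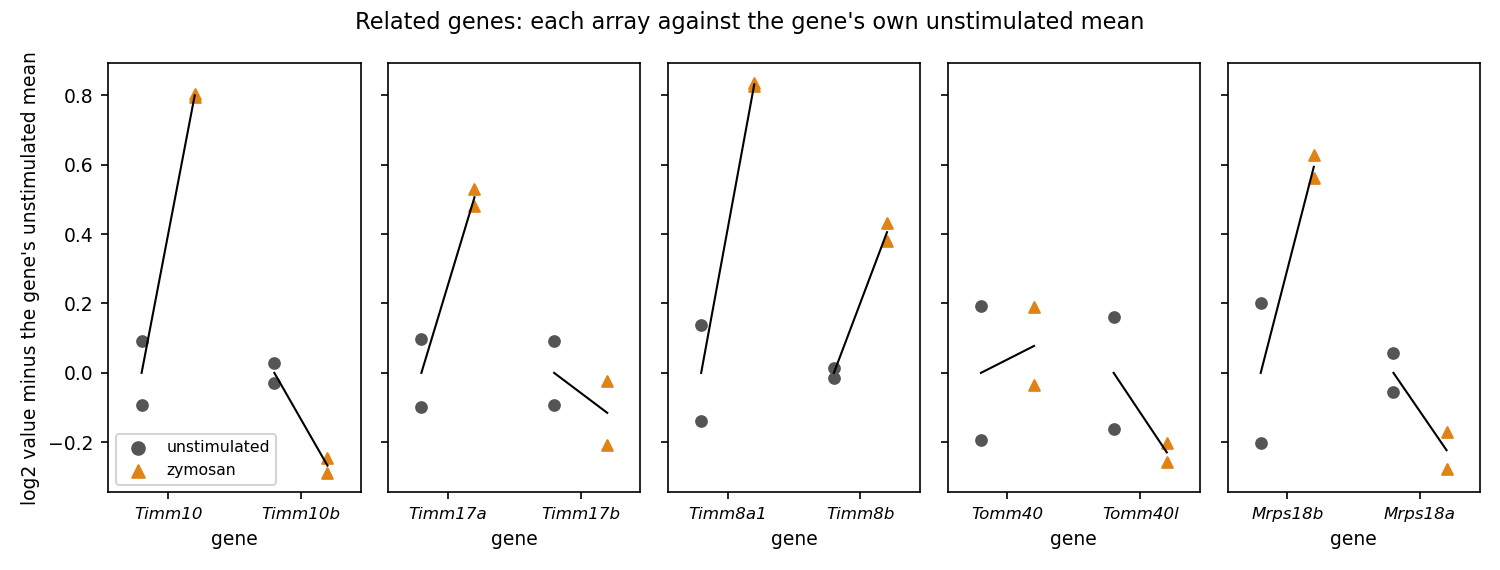
Pairs of related genes, each array drawn as its log2 value minus that gene's own unstimulated mean (circles unstimulated, triangles zymosan, lines between group means, n = 2 arrays a group). Timm10, Timm17a and Mrps18b go up while the lines of Timm10b, Timm17b and Mrps18a slope down, and both Timm8 genes go up by 0.83 and 0.41. The second Timm17b probe set, not drawn, differed by 0.30.

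The Mrpl genes shifted by small amounts, 37 of 47 upward. The 6 that passed the test are 12.8% of them, near the 10.1% of all genes. Mrpl39 read 10.02 and 10.23 against 10.56 and 10.87 and rose 1.51-fold (0.59, SE 0.14, limma adjusted p = 0.0417). In the fit over all probe sets its second probe set rose by 0.73 (limma adjusted p = 0.0143), while this one did not pass (0.0522). Mrpl43 read 8.87 and 8.87 against 9.45 and 9.28 and rose 1.41-fold (0.49, SE 0.11, limma adjusted p = 0.031). Mrpl22, which lines the exit tunnel of the ribosome, read 9.07 and 8.94 against 9.54 and 9.43 and rose 1.39-fold (0.48, SE 0.11, limma adjusted p = 0.033).

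Mrpl38 read 6.82 and 6.91 against 7.34 and 7.31 and rose 1.38-fold (0.46, SE 0.10, limma adjusted p = 0.029). This probe set can match other transcripts by its design class, and the second Mrpl38 probe set differed by 0.004. Mrpl40 read 9.43 and 9.43 against 9.81 and 9.85 and rose 1.31-fold (0.39, SE 0.09, limma adjusted p = 0.0406). Mrpl18, a relative of the protein that binds 5S RNA in other ribosomes, read 9.63 and 9.66 against 10.002 and 10.03 and rose 1.29-fold (0.37, SE 0.09, limma adjusted p = 0.0473). In all 6 the groups were apart, as in 60.6% of all genes. Mrpl47 lay just outside the threshold, with a difference of 0.42 and a limma adjusted p of 0.0518, and 11 of the 98 genes, all higher, had an adjusted p from 0.05 to 0.1.

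At the other end, the lowest Mrpl differences were -0.26 for Mrpl21, Mrpl50 and Mrpl19 and -0.25 for Mrpl45, none past the test. In Mrpl52 and Mrpl41, with differences of 0.52 each, the unstimulated arrays lay 0.51 and 0.42 apart, and the limma adjusted p was 0.101 and 0.0706. The stalk genes Mrpl10 and Mrpl12 differed by 0.13 and 0.17. Mrpl58, known as the peptidyl-tRNA hydrolase that rescues stalled mitoribosomes, differed by 0.40 (limma adjusted p = 0.0721).

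Of the genes named Mrps, Mrps18b and Mrps36 rose and Mrps30 fell. Mrps18b read 8.58 and 8.18 against 9.01 and 8.94 and rose 1.51-fold (0.59, SE 0.15, limma adjusted p = 0.0473), with its unstimulated arrays 0.40 apart. Its relatives Mrps18c, at 9.96 and 10.13 against 10.11 and 10.23 (0.13), and Mrps18a, at 9.14 and 9.25 against 9.02 and 8.92 (-0.22), did not pass. Mrps36, which despite its name is now known as a part of the 2-oxoglutarate dehydrogenase complex, read 8.61 and 8.74 against 9.09 and 9.05 and rose 1.32-fold (0.40, SE 0.10, limma adjusted p = 0.0482).

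Mrps30 read 8.51 and 8.47 against 8.15 and 8.04. It was the only one of the 98 genes called lower, by 1.31-fold (-0.39, SE 0.10, limma adjusted p = 0.0483). Mrps30 did not pass when any of the 4 arrays was left out, or in the fit over all probe sets (limma adjusted p = 0.0639). Nor did it pass with arrays centred on their medians, no filter, only plain _at probe sets, a minimum change of 1.2-fold or the day block. Mrps22, Mrps25 and Mrps16 had differences of 0.48, 0.44 and 0.38 with limma adjusted p of 0.0608, 0.0593 and 0.0685. The other Mrps differences not past the test reached down to -0.23, for Mrps11.

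**Figure D4:**
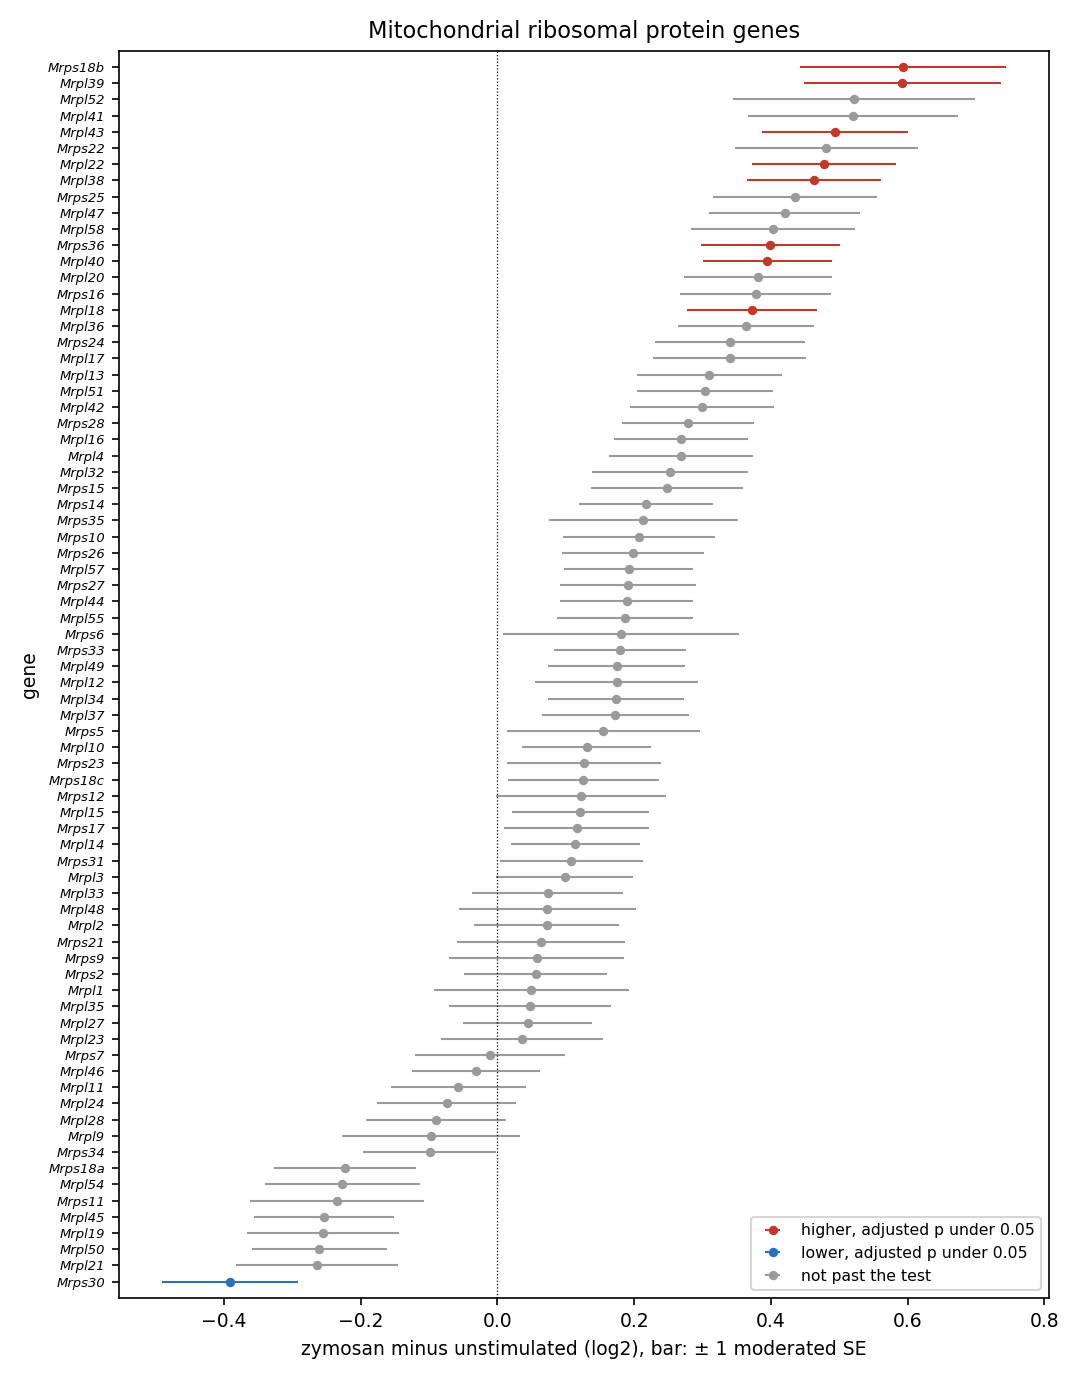
All 76 tested Mrpl and Mrps genes in order of the difference between zymosan and unstimulated means (log2), with bars of 1 moderated SE on each side. Points to the right of 0 are 61 of the 76, most between 0 and 0.4, and only Mrps30 is called lower.

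Other probe sets of the same genes did not always follow. Of 49 genes with more than 1 kept probe set, all probe sets differed in the same direction in 29. In a fit over all 27571 kept probe sets, Mrpl15 and Mrpl44 each had a dimmer probe set that was lower while the brightest one was not. For Mrpl15 the dimmer one read 6.85 and 7.02 against 5.98 and 5.96 (-0.97, SE 0.11, limma adjusted p = 0.00728) and the brightest differed by 0.12. For Mrpl44 it read 7.37 and 7.37 against 6.96 and 6.71 (-0.53, SE 0.13, limma adjusted p = 0.0426) and the brightest differed by 0.19. A dim Mrps21 probe set was higher, at 5.17 and 4.83 against 5.69 and 5.69 (0.69, limma adjusted p = 0.0307), beside 0.06 for the brightest. Which transcript each of these dimmer probe sets reads was not tested.

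The promoters of these genes were then read. Windows from 250 bases before to 50 bases after the start, from RefSeq on GRCm38.p6, matched 88 of the 100 genes. Mrpl13, Mrpl15, Mrpl19, Mrpl38, Mrpl4, Mrpl54, Mrps28, Mrps34, Mrps35, Timm21, Tomm40l and Tomm7 had no match. The stretches printed here, 110 bases before to 30 bases after the start, 5′ to 3′ on the gene's strand, are those of the 3 genes of smallest p, of 3 other called genes that hold a searched motif there, and of Timm10b, the small Tim that went the other way. Capitals mark matches to CACGTG (E-box), CCGGAAG or its reverse complement CTTCCGG (ETS family), and GCATGCGC or its reverse complement GCGCATGC (NRF1).
Timm10 (chr2:84826911-84827050, plus strand): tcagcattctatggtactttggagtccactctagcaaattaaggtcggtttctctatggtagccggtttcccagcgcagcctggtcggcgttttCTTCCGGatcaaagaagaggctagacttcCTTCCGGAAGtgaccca
Timm8a1 (chrX:134541641-134541780, minus strand): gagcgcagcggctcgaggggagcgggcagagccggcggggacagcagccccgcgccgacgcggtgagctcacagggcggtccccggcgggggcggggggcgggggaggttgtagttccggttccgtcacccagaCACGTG
Timm9 (chr12:71136646-71136785, minus strand): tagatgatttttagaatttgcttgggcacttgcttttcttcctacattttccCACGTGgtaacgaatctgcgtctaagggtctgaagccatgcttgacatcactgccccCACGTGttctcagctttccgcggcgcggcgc
Timm23 (chr14:32201862-32202001, minus strand): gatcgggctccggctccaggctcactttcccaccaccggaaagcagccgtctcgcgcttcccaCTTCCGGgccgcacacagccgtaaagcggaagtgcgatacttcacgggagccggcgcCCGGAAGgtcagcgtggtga
Timm8b (chr9:50603791-50603930, plus strand): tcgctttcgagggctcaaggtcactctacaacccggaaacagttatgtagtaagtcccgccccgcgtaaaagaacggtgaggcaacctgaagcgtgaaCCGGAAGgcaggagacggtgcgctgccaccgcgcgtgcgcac
Timm10b (chr7:105640335-105640474, plus strand): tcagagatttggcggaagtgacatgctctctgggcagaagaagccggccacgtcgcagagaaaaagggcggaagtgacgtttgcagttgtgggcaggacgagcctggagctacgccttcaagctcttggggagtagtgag
Mrpl22 (chr11:58171554-58171693, plus strand): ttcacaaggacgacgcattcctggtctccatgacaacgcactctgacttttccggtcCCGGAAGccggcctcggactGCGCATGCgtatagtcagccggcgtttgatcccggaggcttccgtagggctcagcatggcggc

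In these stretches, Timm9 holds 2 E-box matches, 1 of them across the start, and Timm8a1 holds 1 E-box 24 bases past the start. Timm10 holds ETS matches on both sides of its start, 2 of which overlap on opposite strands, and an E-box that begins 28 bases past the start and runs beyond the printed stretch. Timm23 holds 2 ETS matches, Timm8b 1, and Mrpl22 1 ETS and 1 NRF1 match. Timm10b has no match in the stretch shown and 1 ETS match further into the transcript. A match is a string of letters and was not tested as a binding site. Some of these stretches were picked for holding a motif, so they do not compare genes that rose with Timm10b. The windows of Timm17a, Mrpl40 and Mrps36, also called higher, held none of the searched motifs.

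Both strands of each window were searched for 6 motifs, each counted whether or not it overlapped another. The ETS letters CCGGAAG were the commonest, in 34 of the 88 windows (38.6%), against 9.12% of all 27025 windows and 16.9% of those of the genes tested. The YY1 letters AAGATGGC stood in 14.8%, against 2.88% and 4.48%, and the NRF1 letters in 10.2%, against 2.8% and 5%. The E-box stood in 11.4%, close to the 9.88% of the genes tested, and the CRE letters TGACGTCA in 2.27% against 3.03%. The EGR letters GCGTGGGCG stood in none of the 88 windows and in 1.21% of those of the genes tested. Among the 13 genes called higher that had a window, 7 held the ETS letters and 3 each the E-box and NRF1 letters. Among the 73 tested and not called higher, 26 held the ETS letters (35.6%) and 6 each the E-box and NRF1 letters (8.22%). The E-box stood in 11.4% of the windows of genes called higher outside these families. The 3 called genes with an E-box are Timm10, Timm8a1 and Timm9. The motifs were chosen after the values were seen, and a link between letters and calls was not tested. None of the 13 genes with the YY1 letters, 12 of them Mrpl or Mrps, was among those called higher. Of all 86 tested genes with a window only 13 were called higher, so few would be expected among 13 genes. This too was not tested.

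Many of these genes share their promoter region with a gene on the other strand. Of the 88, 31 (35.2%) had a neighbour that starts within 1000 bases in the opposite direction, against 18.5% of the tested genes with a window. Of the 7 such genes called higher, no neighbour was called higher and 1 was called lower, which with 10.1% and 6.73% of all genes called is near the background. Timm23 rose by 0.56 while Parg, an enzyme that removes poly(ADP-ribose) and that starts 58 bases away, read 7.99 and 7.95 against 7.61 and 7.37 and fell by 0.48 (limma adjusted p = 0.0435). Timm8b rose by 0.41 beside 0.07 for Sdhd, a subunit of respiratory complex II, with starts 52 bases apart. Mrpl18 rose by 0.37 beside 0.29 (limma adjusted p = 0.0938) for Tcp1, a subunit of the cytosolic chaperonin, and Mrpl43 by 0.49 beside 0.16 for Twnk, the helicase of mitochondrial DNA. The difference within each pair was not tested.

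Genes that work with the import machinery under other names were also higher in part. Of 20 such partners measured, 7 rose (35%, against 10.1% of all genes) and none fell (against 6.73%). Their median difference was 0.25, against 0.004 for all genes. They were Hspd1 (0.83, limma adjusted p = 0.00559) and Hspe1 (0.74, 0.00964), which form the chaperonin that folds imported proteins, Chchd4 (0.63, 0.0118), which traps the small Tims in the intermembrane space by oxidizing them, and Immp1l (0.61, 0.0158), an inner membrane peptidase. The others were Dnajc15, a motor cochaperone (0.53), Pmpcb, the catalytic subunit of the presequence peptidase (0.47), and Grpel1, the nucleotide exchange factor of the import motor (0.39). Chchd4 read 8.85 and 8.79 against 9.47 and 9.43. Hspa9, the motor's own Hsp70, differed by 0.18 and did not pass, and neither did Gfer, which reoxidizes Chchd4 (0.23). Oxa1l, which inserts proteins made on the mitoribosome, differed by -0.36 (limma adjusted p = 0.0562). Mgme1, a nuclease of mitochondrial DNA, was on this list although it is no import factor. The partner count was 3 with the day block, 2 against a minimum change of 1.2-fold, 8 and 6 without unstimulated replicates 1 and 2, and 0 when either zymosan array was left out.

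Of 24 factors of mitochondrial translation, 3 rose and 3 fell, or 12.5% each way, which is near the 10.1% and 6.73% of all genes. Those that rose were Lrpprc, which stabilizes mitochondrial mRNA (0.60, limma adjusted p = 0.0198), the elongation factor Gfm1 (0.57, 0.0222) and the recycling factor Mrrf (0.49, 0.0352). Those that fell were Mrm2 (-0.80, 0.0182) and Nsun4 (-0.55, 0.0288), which modify the mitochondrial ribosomal RNA, and Guf1 (-0.48, 0.0257), a relative of the elongation factors. None of these 6 passed with the day block, against a minimum change of 1.2-fold or with either zymosan array left out. Of 4 mitoribosome proteins with other names, none passed with limma and 1 was higher at an unadjusted p under 0.05: Ptcd3 differed by 0.39, Dap3 by 0.30, Chchd1 by 0.22 and Gadd45gip1 by -0.08.

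**Figure D5:**
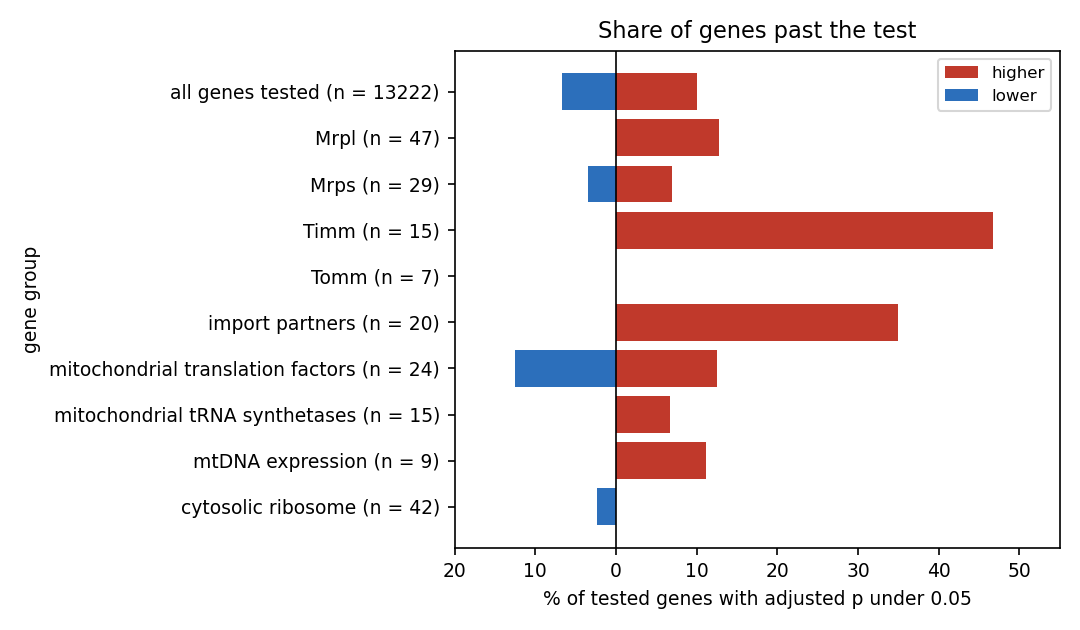
Share of the tested genes of each group with an adjusted p under 0.05, lower to the left of 0 and higher to the right, with the number tested in brackets. The Timm genes (46.7%) and the import partners (35%) have the longest bars to the right, against 10.1% for all genes, and the Tomm genes have none.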

How the data were processed

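The authors deposited 1 log2 expression value per probe set and array, made with RMA per the submitters' processing notes. The RMA version is not given in the sources used here, nor which arrays were normalized as one set. The scanner's settings files gave chip type, scan day, operator and project. Of 45101 probe sets, 64 controls were left out, and 34945 had 1 symbol, 932 several and 9160 none in the platform annotation, which can be old. Probe sets at or above their array's 40th percentile on at least 2 arrays were kept (27571). The brightest stood for a gene, giving 13222 genes. Groups were compared with limma 3.58.1 in R 4.3.3 (lmFit, eBayes, 2-sided, Benjamini-Hochberg), with differences as zymosan minus unstimulated. The script was tested on simulated data.

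Named were up to 5 called genes per family and direction, all core import genes, related pairs, and genes whose probe sets disagreed; up to 4 called genes of each other list; and further genes chosen after their values were seen. Members, lists and rules were chosen with earlier results of these data known, and motifs, printed promoters and the 1000-base limit after the members' values were seen. Alternatives concerned the filter, scaling, probe set, variance model, minimum fold, processing day and each array. Precision is limited by the number of arrays, 2 a group.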

Additional observations from a re-analysis of the deposited data

How the results depend on the processing

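The count of 15 higher members was 9 with no filter and 9 with only plain _at probe sets (78 tested), and 2 (Timm10 and Timm8a1) both against a minimum fold of 1.2 and with processing day as a random block. It ranged from 0 to 16 when 1 array was left out. The count of 1 lower member was 0 under each of those 4 settings and with arrays centred on their medians, and ranged from 0 to 1 with an array left out. The members' median difference ranged from 0.12 to 0.20 with an array left out, and the Tomm median from -0.035 (without zymosan replicate 1) to 0.094. Over all genes, 458 were higher and 312 lower against the minimum fold, and 589 and 400 with the block. With an array left out the counts ranged from 132 to 1850 higher and 91 to 1132 lower, and the median from -0.0073 to 0.029. That median was 0.031 with the filter at the 60th percentile and -0.017 with the mean of a gene's probe sets. The cause was not tested. Of the 32 named members, none that was called changed sign under any alternative run. The block used a correlation of 0.484 set from the array pairs and was chosen after seeing the data; the planned one, from limma's duplicateCorrelation, could not be fitted and was not run. No paired analysis was possible because the labels give the groups no shared replicate numbers. With 2 arrays a group, a change not past the test was not shown to be absent.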

Other observations

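Of 42 genes of the cytosolic ribosome, none was called higher and Rps25 was lower (-0.53, limma adjusted p = 0.0318). With limma, 0 were higher and 1 lower at an unadjusted p under 0.05. The Rps25 probe set read 9.31 and 9.08 unstimulated, well below the median level of these genes (12.84). Their median difference was 0.02, beside 0.17 for the Mrpl and Mrps genes. The median unstimulated level of the Mrpl and Mrps genes was 8.86, so the 2 medians are not set at like signal levels. Whether the families differ was not tested.

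Of 15 mitochondrial tRNA synthetases, Rars2 rose by 0.71 (8.20 and 8.10 against 8.86 and 8.87, limma adjusted p = 0.00894) and no other passed. Of 9 genes that copy or transcribe mitochondrial DNA, Ssbp1, the single-strand binding protein, rose by 0.42 (limma adjusted p = 0.0352), while Tfam differed by 0.06 and Polrmt by -0.003. Of 11 genes listed as regulators, Ppif, a matrix cyclophilin and no regulator of transcription, rose by 0.57 (limma adjusted p = 0.0178). Nrf1 differed by 0.56 and Gabpb1 by 0.39 with limma adjusted p of 0.0514 and 0.0515, and Myc by 0.28 with overlapping groups.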
